A study of Mus musculus with 12 samples.

Results

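Left ventricles of Cre-positive mice were compared with left ventricles of Cre-negative mice after sham surgery, with 3 libraries per genotype out of 12 libraries in the series. The 6 libraries were chosen by their labels alone (Cre positive, Sham surgery and Cre negative, Sham surgery), no measured value entered the choice, and all genes were analysed. All mice were siblings with floxed Yap alleles. Cre-positive mice also carried a copy of MerCreMer, a tamoxifen-inducible Cre recombinase, under the endogenous periostin promoter, and Cre-negative mice had wildtype Periostin. The mice were 6 to 10 weeks old, received a tamoxifen citrate diet from the time of surgery and gave their left ventricle on day 4. The other 6 libraries came from the same genotypes after ligation of the left anterior descending artery (myocardial infarction, MI); here they served to estimate the spread and to test whether the genotype difference after sham differed from that after MI.

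The comparison asked what the Cre genotype did to the ventricle in the absence of an infarct. YAP, the protein of Yap1, is a transcriptional coactivator restrained by the kinases of the Hippo pathway; in the nucleus it works with TEAD factors and drives genes of growth, matrix and cytoskeleton. Periostin, the protein of Postn, is a secreted matricellular protein made by fibroblasts that have been activated towards myofibroblasts, and the Postn promoter is therefore used to restrict Cre to such cells. In an uninjured ventricle few fibroblasts are in that state, and after infarction they multiply and deposit the collagens, glycoproteins and crosslinking enzymes of the scar. No Cre-positive group without floxed Yap was included, so an effect of loss of Yap, of the MerCreMer insertion at Postn and of active Cre cannot be told apart. Each library is whole ventricle, in which fewer cells of a type and less RNA per cell cannot be told apart. The labels give replicates only a number, so the p-values measure the spread between these samples.

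Sham libraries held 10257675 to 13608483 expected counts, a range of 1.33-fold, and 13678 genes passed the filter on low counts. Levels are given as CPM, the counts of a gene brought to a common library total after TMM scaling, in the order of replicates 1, 2 and 3. The ventricular myosin light chain gene Myl2 was at 11033, 9628 and 10884 CPM in Cre-negative and 11108, 7883 and 12135 CPM in Cre-positive sham libraries, and the atrial gene Bmp10 was at 0.0804 CPM in 1 library and at 0 in the other 5. Traces of atrial genes varied between libraries. Myl7, the atrial myosin light chain gene, was at 15, 8.08 and 29.3 CPM in the Cre-negative and 0.643, 38.9 and 3.82 CPM in the Cre-positive libraries. Reads of the Y-linked genes Uty, Kdm5d, Eif2s3y and Ddx3y together came to 155, 0.299 and 182 CPM in the Cre-negative and 0, 0.0916 and 1.65 CPM in the Cre-positive libraries. They were above 10 CPM in 2 of 3 Cre-negative and 0 of 3 Cre-positive libraries. The calls are therefore also given with a yes-or-no term for Y-linked reads above 10 CPM in the fit of 12 libraries. Of the MI libraries, all Cre-negative ones and Cre-positive replicate 1 were above 10 CPM and share this term. It is called Y-linked reads as a term below. In each called gene the Cre-negative library without Y-linked reads also lay above all 3 Cre-positive libraries. This follows from the lack of overlap between the groups in these genes and rests on 1 library. It therefore does not separate genotype from the difference in Y-linked reads.

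Cre-positive sham replicate 2 stood apart from the other 5 sham libraries. Its score on the component with the largest share of variance (43.7%) was 63.4, against -19.8 to -4.49 in the others. Of 5130 well-expressed genes (average log2 CPM no lower than 5), 117 were over 2-fold above and 123 over 2-fold below the median of the other 5 libraries. Among the other libraries, Cre-positive replicate 1 had the most such genes, 3 above and 23 below. Myh7, the slow myosin heavy chain gene re-expressed in stressed ventricle, was at 34051 CPM in replicate 2 against 376 to 2937 CPM in the other 5. Myh6, the main adult myosin heavy chain gene, was at 14330 CPM against 39820 to 53126 CPM. The genes highest in it included the fuel-switch gene Pdk4 (2242 CPM against 60.5 to 534 CPM) and the cell cycle inhibitor gene Cdkn1a (206 CPM against 16.7 to 40.4 CPM). The lowest were the collagen genes Col3a1 (21.7 CPM against 150 to 555 CPM), Col15a1 (11.2 CPM against 91.3 to 174 CPM) and Col1a1 (28.2 CPM against 114 to 445 CPM), the fibroblast gene Pi16 (10.8 CPM against 68.3 to 103 CPM) and Cd74, the invariant chain of antigen-presenting cells (13.6 CPM against 97.2 to 130 CPM). Results below are therefore given with and without this library, which was set apart with its raised Myh7 already known.

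**Figure D1:**
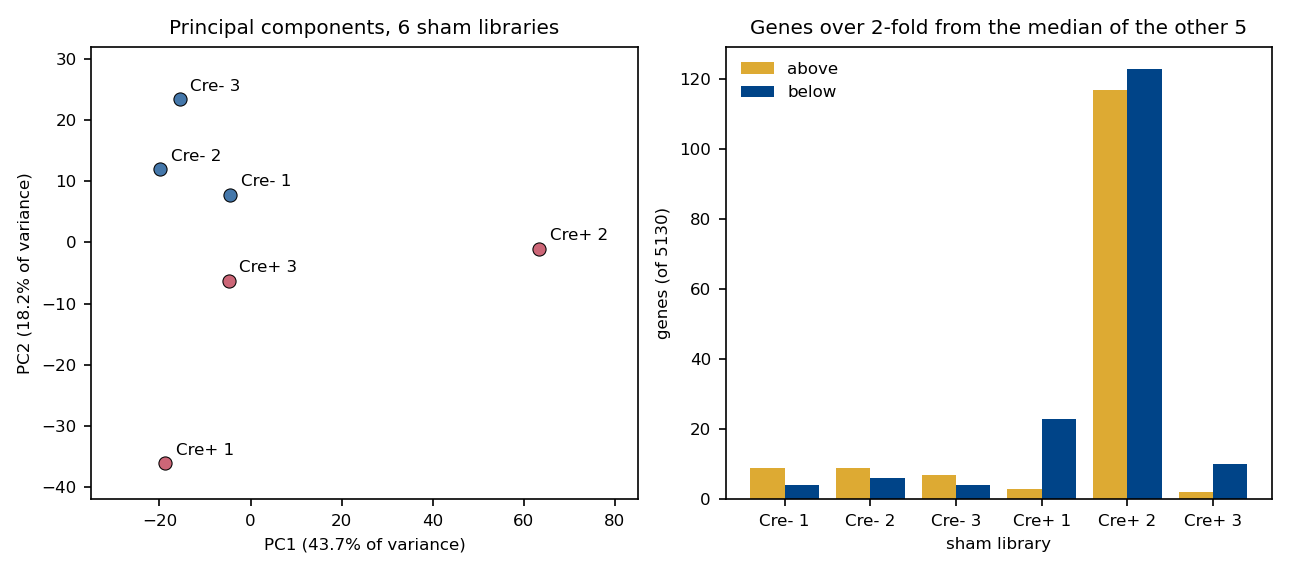
Left, scores of the 6 sham libraries on the first principal components of log2 CPM, coloured by genotype (Cre- and Cre+, replicates 1 to 3). Right, bars count the genes, of 5130 with an average log2 CPM no lower than 5, that lay over 2-fold above or below the median of the other 5 sham libraries; Cre-positive replicate 2 had 117 above and 123 below.

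Yap1, the floxed gene (GRCm38 chr9:7931999-8004638), was at 116, 115 and 114 CPM in the Cre-negative and 121, 102 and 107 CPM in the Cre-positive sham libraries. The groups overlapped. The log2 difference, Cre-positive minus Cre-negative, was -0.06 ± 0.09 (SE, n = 3 per group, edgeR quasi-likelihood adjusted p = 0.843), with a 95% interval from -0.26 to 0.13. That interval reaches no further than a level 16.2% lower in whole ventricle. Each SE given here comes from the quasi-likelihood test and uses the spread shared by the sham and MI libraries. Without replicate 2 the difference was 0.02 ± 0.09 (adjusted p = 0.962). Counts per gene do not separate transcripts with and without the floxed exon, and most ventricular Yap1 RNA can come from cells that do not express periostin, so excision in myofibroblasts was not tested by this value.

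Over all genes, 7 of 13678 genes (0.0512%) differed between the genotypes after sham at an adjusted p under 0.05, and all 7 were lower in Cre-positive hearts. They were Postn, Tnc, Cthrc1, Bche, Sprr1a, Aspn and Spp1. In each of the 7 every Cre-positive library lay below every Cre-negative library, with the group means 1.79-fold to 23.6-fold apart. No gene was called higher. At an unadjusted p under 0.05, 507 genes (3.71%) were higher and 618 (4.52%) lower. Without replicate 2, 5 of 13837 genes (0.0361%) were called, again all lower: Postn, Tnc, Cthrc1, Bche and Aspn. At an unadjusted p under 0.05, 589 genes (4.26%) were then higher and 732 (5.29%) lower. Spp1 (adjusted p = 0.112) and Sprr1a (adjusted p = 0.0854) were not called without it. With Y-linked reads as a term 5 genes were called, and Bche and Spp1 (both adjusted p = 0.102) were not among them; with the term and without replicate 2, 4 were called. DESeq2 called 37 of 12367 genes (0.299%), 11 higher (0.0889%) and 26 lower (0.21%), among them all 7. A fit of the 6 sham libraries alone, with 4 residual degrees of freedom, called 0 genes, with 453 at an unadjusted p under 0.05, so the calls rest on a spread shared with the MI libraries.

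**Figure D2:**
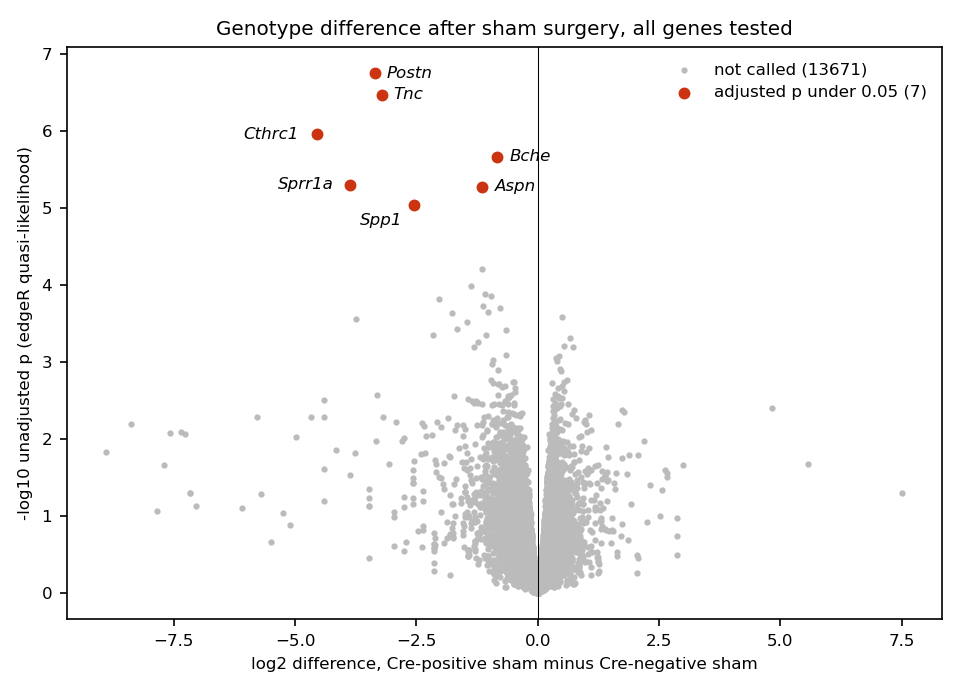
Each point is 1 of 13678 genes; the x axis is the log2 difference of Cre-positive minus Cre-negative sham libraries (n = 3 each) and the y axis the -log10 unadjusted p of the edgeR quasi-likelihood test. The 7 genes with an adjusted p under 0.05 are red and all lie left of 0.

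Postn itself had the smallest p. It was at 111, 86.7 and 62.7 CPM in the Cre-negative and 10.2, 3.76 and 11.4 CPM in the Cre-positive sham libraries. All 3 Cre-positive libraries were low, replicate 2 the lowest, and the groups were far from overlapping. The mean was 10.3-fold lower, with a log2 difference of -3.36 ± 0.32 (SE, n = 3 per group, adjusted p = 0.00227). Without replicate 2 it was -2.98 ± 0.21 (adjusted p = 5.39e-05). Postn lies at GRCm38 chr3:54359267-54391041, and its locus carries MerCreMer in the Cre-positive mice; whether the insertion changes the reads counted for Postn was not tested. After MI the gene was at 1589, 1527 and 1728 CPM in Cre-negative and 603, 628 and 674 CPM in Cre-positive hearts, a log2 difference of -1.35 ± 0.28 that was not called (adjusted p = 0.202).

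The promoter windows of the called genes are shown because these genes were low together, YAP acts through promoter and enhancer sites of TEAD factors, and Cre expression was placed under the Postn promoter. RefSeq windows of 300 bases (GRCm38.p6, 250 before to 50 after the annotated start) were matched for 6 of the 7 genes, 9 windows in all; Cthrc1 was not matched. The window of Postn at chr3:54360857-54361156 (plus strand) and that of Tnc at chr4:64046887-64047186 (minus strand) are printed 5′ to 3′, with the TATA core TATAA in capitals.
Postn: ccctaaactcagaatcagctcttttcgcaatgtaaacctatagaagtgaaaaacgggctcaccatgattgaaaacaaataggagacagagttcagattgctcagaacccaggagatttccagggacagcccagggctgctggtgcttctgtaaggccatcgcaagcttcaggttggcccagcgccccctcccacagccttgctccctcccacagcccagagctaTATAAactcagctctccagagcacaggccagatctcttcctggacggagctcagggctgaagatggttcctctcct
Tnc: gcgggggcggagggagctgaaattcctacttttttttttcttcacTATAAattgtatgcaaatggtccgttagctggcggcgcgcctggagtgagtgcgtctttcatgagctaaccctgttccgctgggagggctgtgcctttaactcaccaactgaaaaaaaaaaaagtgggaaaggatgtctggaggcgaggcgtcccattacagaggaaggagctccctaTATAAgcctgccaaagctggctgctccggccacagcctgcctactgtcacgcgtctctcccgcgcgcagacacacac
In these windows the TATA core begins 26 bases before the start of Postn and 27 bases before the start of Tnc, where a TATA box usually lies; Tnc has another copy 205 bases before its start. The other window of Postn, which lies upstream, has no TATAA, nor has the window of Bche. The other window of Tnc overlaps the one shown and has TATAA 126 bases before its own start. TATAA also begins 43 bases before the start of Sprr1a, 207 before that of Aspn, and 211 and 238 before the starts of Spp1. TATAA on the coding strand is in 17.5% of all 32851 windows and in 9.74% of the 13923 windows of tested genes; this motif was searched after the sequences had been seen. The TEAD core GGAATG, searched on both strands, is in 0 of the 9 windows of called genes, against 14.7% of all windows and 12.5% of those of tested genes. The CArG box bound by serum response factor is also in 0 of 9, against 1.63% of all windows and 1.3% of those of tested genes. These are matches of letters in short windows, and TEAD sites often lie in distal enhancers that the windows do not cover.

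Tnc encodes tenascin C, a matrix glycoprotein laid down transiently in injured tissue, and lies at GRCm38 chr4:63959785-64047015. It was at 8.75, 8.28 and 12.7 CPM in the Cre-negative and 1.53, 0.458 and 1.13 CPM in the Cre-positive libraries, with no overlap. The mean was 9.32-fold lower (log2 difference -3.22 ± 0.32, adjusted p = 0.00227; without replicate 2, -2.84 ± 0.32, adjusted p = 0.00661).

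Cthrc1, a secreted product of activated fibroblasts on chromosome 15 (GRCm38 chr15:39076932-39087121), had the largest fold difference of the 7 called genes. It was at 4.8, 2.79 and 5.91 CPM in the Cre-negative and 0.161, 0 and 0.412 CPM in the Cre-positive libraries. Over the 3 libraries of a group this was 139 against 6 counts, and the 0 counts of replicate 2 allow a level of up to 0.275 CPM. The mean was 23.6-fold lower (log2 difference -4.56 ± 0.51, adjusted p = 0.00494; without replicate 2, -3.98 ± 0.51, adjusted p = 0.0141).

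Aspn encodes asporin, a small leucine-rich proteoglycan that binds collagen, and lies at GRCm38 chr13:49544443-49567565. It was at 34, 36.8 and 28.4 CPM in the Cre-negative and 12.5, 16.6 and 16 CPM in the Cre-positive libraries. Replicate 2 was the highest of its group here, and the groups did not overlap. The mean was 2.2-fold lower (log2 difference -1.14 ± 0.15, adjusted p = 0.0119; without replicate 2, -1.19 ± 0.16, adjusted p = 0.0148).

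Bche encodes butyrylcholinesterase, which hydrolyses choline esters, and lies at GRCm38 chr3:73635805-73708436. Its level was 67, 61.7 and 67.6 CPM in the Cre-negative and 37.5, 39.1 and 32.9 CPM in the Cre-positive libraries. The difference was small but tight, 1.79-fold (log2 difference -0.84 ± 0.10, adjusted p = 0.00733; without replicate 2, -0.86 ± 0.11, adjusted p = 0.0141). In the MI libraries Bche was at 44.5, 50.3 and 41.3 CPM in Cre-negative and 41.2, 43.2 and 42.1 CPM in Cre-positive hearts, so that the Cre-negative sham libraries were the high ones among the 4 groups.

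The calls of Spp1 and Sprr1a depended on more single libraries than the other calls. Both were lost without Cre-positive replicate 1 or 2 or Cre-negative replicate 1, Spp1 also without Cre-negative replicate 3 and Sprr1a also without Cre-positive replicate 3 (adjusted p from 0.0571 to 0.112). Aspn and Bche were lost without Cre-negative replicate 1 (both edgeR adjusted p = 0.0571), and Bche also without Cre-negative replicate 3 (edgeR adjusted p = 0.0617). Spp1 encodes osteopontin, a secreted glycoprotein made by macrophages and other cells after injury (GRCm38 chr5:104435111-104441053). Spp1 was at 3.95, 2.89 and 4.63 CPM in the Cre-negative and 0.402, 0.55 and 1.03 CPM in the Cre-positive libraries, 118 against 21 counts. Its log2 difference was -2.56 ± 0.35 (adjusted p = 0.0176; without replicate 2, -2.45 ± 0.43). Sprr1a, a cornified envelope gene induced in stressed cardiomyocytes (GRCm38 chr3:92483954-92485881), was at 8.18, 5.59 and 3.74 CPM against 0.563, 0.0916 and 0.516 CPM, 181 against 13 counts. Its log2 difference was -3.86 ± 0.50 (adjusted p = 0.0119; without replicate 2, -3.38 ± 0.55). In Spp1 and Sprr1a the groups did not overlap, with or without replicate 2.

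Of the 7 genes 3 (Postn, Bche and Sprr1a) lie on chromosome 3, which holds 4.9% of the 13667 tested genes with a position, 670 in all. The median log2 difference of all tested chromosome 3 genes was -0.03. Whether sequence linked to the MerCreMer allele bears on Bche and Sprr1a was not tested.

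**Figure D3:**
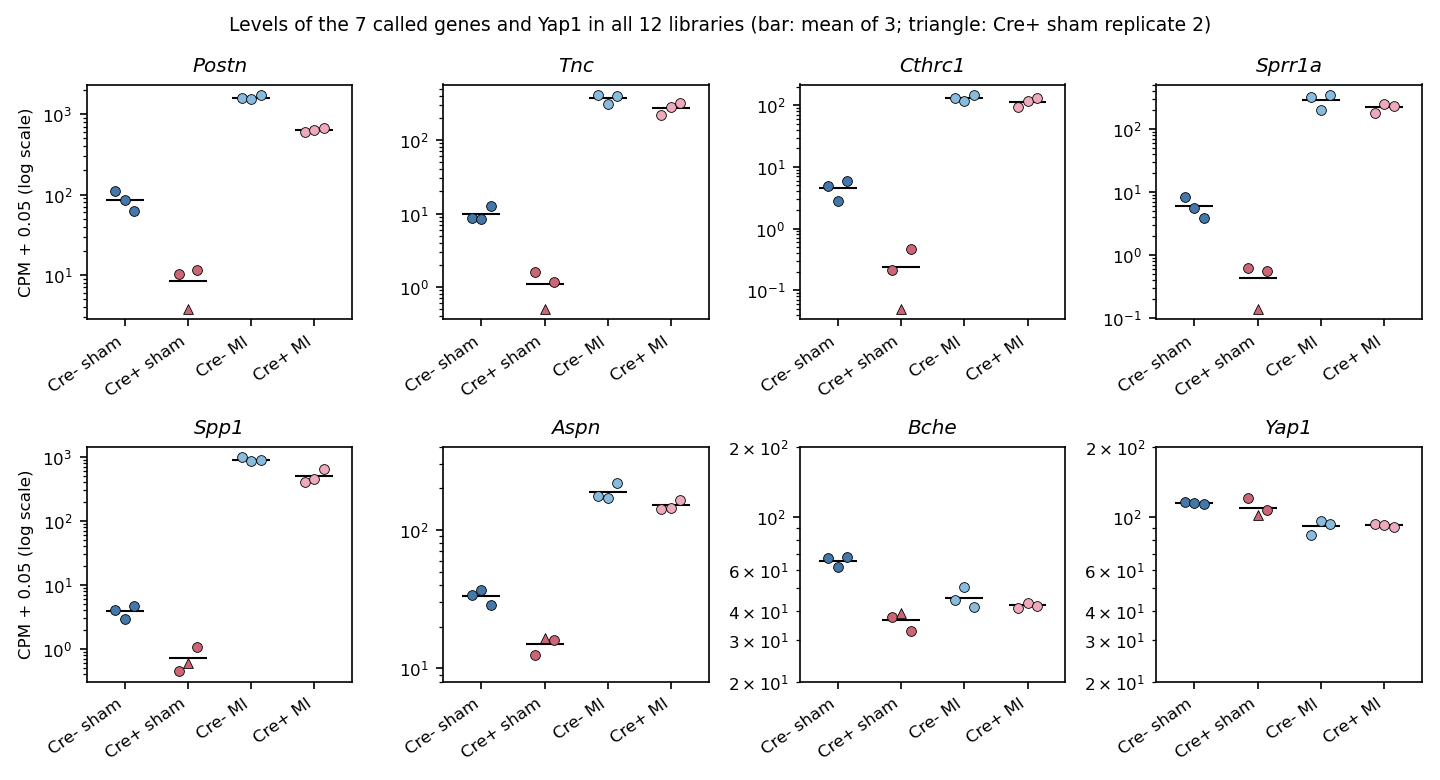
CPM + 0.05 on a log axis for the 7 called genes and Yap1 in the 12 libraries, by genotype and surgery; points are libraries, bars the means of 3 and the triangle is Cre-positive sham replicate 2. For the 7 called genes all Cre-positive sham points lie below all Cre-negative sham points, whereas Yap1 overlaps.

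All of the called genes but Bche had higher levels in every MI library than in any sham library, in both genotypes. Cthrc1 was at 133, 118 and 146 CPM in Cre-negative and 93.8, 116 and 131 CPM in Cre-positive hearts after MI, where the genotypes overlapped (log2 difference -0.22 ± 0.21, adjusted p = 0.717). Spp1 was at 980, 853 and 879 CPM against 412, 452 and 656 CPM after MI, with no overlap, and Sprr1a at 322, 197 and 340 CPM against 178, 247 and 228 CPM, with overlap. Aspn was at 177, 169 and 220 CPM against 142, 145 and 164 CPM after MI. For Tnc the difference after MI was -0.44 ± 0.20 (adjusted p = 0.396), for Sprr1a -0.40 ± 0.25 (adjusted p = 0.549), for Aspn -0.33 ± 0.14 (adjusted p = 0.353) and for Spp1 -0.84 ± 0.19 (adjusted p = 0.216). After MI 0 genes were called by genotype, with 1728 (12.6%) at an unadjusted p under 0.05. The difference between the 2 genotype effects was tested directly and called for 0 genes, with 1116 (8.16%) at an unadjusted p under 0.05. It was -4.34 ± 0.58 on the log2 scale for Cthrc1 and -2.78 ± 0.39 for Tnc (both adjusted p = 0.0777), and -2.01 ± 0.41 for Postn (adjusted p = 0.496). Cthrc1 and Tnc passed when no filter on low counts was applied (both adjusted p = 0.0336), and Cthrc1 passed when Cre-negative sham replicate 2 was left out.

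Beyond the called genes, the lists of matrix and fibroblast genes had median differences below 0 in Cre-positive sham hearts, mostly without calls of single genes. For reading these counts, 753 of all tested genes (5.51%) had every Cre-positive library above and 702 (5.13%) every Cre-positive library below every Cre-negative one; with plain library totals in place of TMM-scaled ones these were 437 and 905, so that the share of higher genes among both went from 51.8% to 32.6%. The median log2 difference over all tested genes was 0.00, and 0.02 without replicate 2. Without replicate 2, 10.7% of all tested genes were lower and 12.3% higher with no overlap of the 2 and 3 libraries.

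Of 21 myofibroblast markers 3 were called lower (Postn, Tnc and Cthrc1), 8 were lower at an unadjusted p under 0.05 and 0 were higher. Their median log2 difference was -0.53, and -0.34 without replicate 2, where the same 3 were called. Col12a1, a fibril-associated collagen, was next at -1.38 ± 0.24 (adjusted p = 0.156; without replicate 2, -1.33, adjusted p = 0.313), with 3.86, 2.59 and 4.73 CPM against 1.29, 1.37 and 1.65 CPM. The contractile genes of the list did not share this pattern. Acta2, smooth muscle actin, was at 75, 119 and 112 CPM against 200, 52 and 100 CPM (0.21 ± 0.36, adjusted p = 0.877; without replicate 2, 0.60, adjusted p = 0.518), and Tagln, transgelin, at 18.9, 19.4 and 13.7 CPM against 15.8, 16.9 and 14 CPM (-0.15 ± 0.13, adjusted p = 0.749; without replicate 2, -0.19, adjusted p = 0.671). Acta2, Tagln and the crosslinking enzyme gene Lox are named here after their values were seen. Lox was at 20.5, 9.48 and 20.6 CPM against 4.26, 26.5 and 5.36 CPM, low in Cre-positive replicates 1 and 3 and high in replicate 2, so that its log2 difference went from -0.49 (adjusted p = 0.793) to -1.80 without that library (adjusted p = 0.09).

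All 19 collagens had a log2 difference below 0, with a median of -0.77; 11 were lower at an unadjusted p under 0.05, 10 had no overlap between the groups and 0 were called. The 3 Cre-positive libraries were unequal here. Relative to the mean of the Cre-negative libraries, the median collagen was at -0.08 in Cre-positive replicate 1, -1.67 in replicate 2 and -0.65 in replicate 3. Without replicate 2 the median was -0.36, 15 of 19 were below 0 and 10 still had no overlap. The basement membrane collagens Col4a1 and Col4a2, expressed by vascular and other cells, were at -0.02 and 0.02 without it; they are named after their values were seen.

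The smallest p-values among collagens belonged to Col12a1, given above, Col5a2, Col8a1 and Col1a2. Col5a2, which nucleates collagen fibrils, was at 50.5, 51.4 and 58.4 CPM in the Cre-negative and 34.4, 16.8 and 24.4 CPM in the Cre-positive libraries (-1.08 ± 0.20, adjusted p = 0.17; without replicate 2, -0.83, adjusted p = 0.128). Col8a1, a short-chain collagen, was at 32, 35.4 and 30.2 CPM against 19.1, 11.2 and 19.4 CPM (-0.97 ± 0.18, adjusted p = 0.17; without replicate 2, -0.73, adjusted p = 0.09). Col1a2, a chain of the main fibrillar collagen, was at 267, 243 and 338 CPM against 186, 53.8 and 142 CPM (-1.15 ± 0.32, adjusted p = 0.582; without replicate 2, -0.76, adjusted p = 0.244). In all 3 the groups did not overlap, with or without that library.

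**Figure D4:**
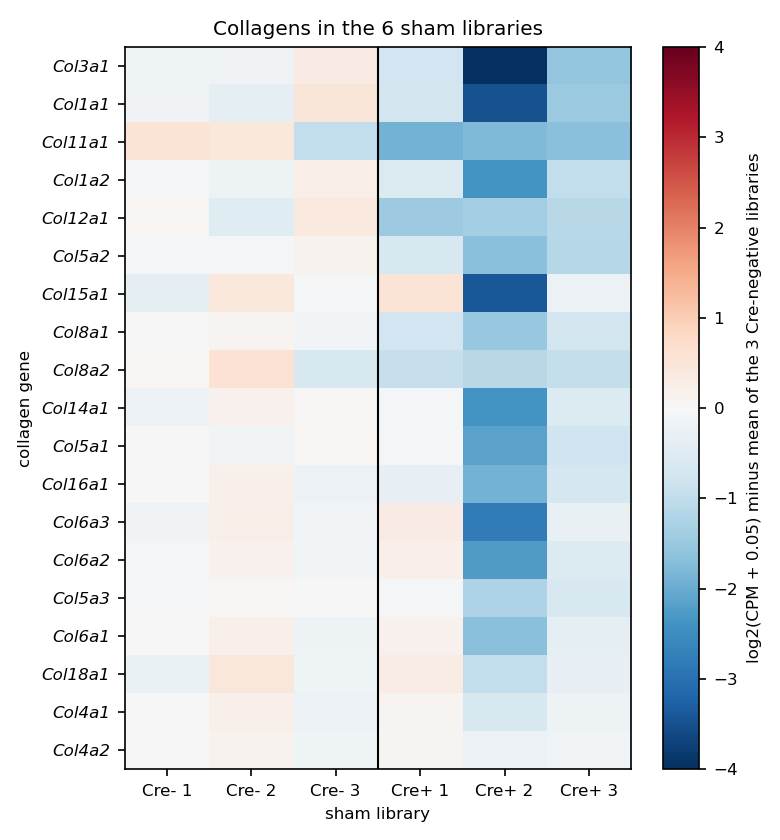
Rows are the 19 tested collagen genes and columns the 6 sham libraries (Cre- and Cre+, replicates 1 to 3); colour is log2(CPM + 0.05) minus the mean of the 3 Cre-negative libraries. Col3a1 and Col1a1 are lowest in Cre-positive replicate 2, and Col12a1, Col5a2, Col8a1 and Col1a2 are lower in all 3 Cre-positive libraries than in any Cre-negative library.

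Of 43 matrix glycoproteins and crosslinking enzymes 4 were called lower (Postn, Tnc, Aspn and Spp1), 20 were lower at an unadjusted p under 0.05 and 16 did not overlap. The median was -0.49, and -0.32 without replicate 2, where 3 were called and 18 did not overlap. Fn1, fibronectin, was at 108, 107 and 179 CPM against 81.4, 45.8 and 62.6 CPM (-1.06 ± 0.22, adjusted p = 0.265; without replicate 2, -0.84, adjusted p = 0.34). Ltbp2, a latent TGF-beta binding protein gene, was at 8.09, 6.89 and 4.53 CPM against 2.97, 0.733 and 1.96 CPM (-1.76 ± 0.34, adjusted p = 0.198; without replicate 2, -1.34, adjusted p = 0.244). Both are named after their values were seen. Of 28 matrix proteases and inhibitors 0 were called, 16 were below 0 and the median was -0.14; without replicate 2, 23 were below 0 and the median was -0.24. Timp1, an injury-induced inhibitor of metalloproteinases, was at 4.7, 5.19 and 14.8 CPM against 2.17, 1.1 and 2.27 CPM (-2.15 ± 0.45, adjusted p = 0.265; without replicate 2, -1.86, adjusted p = 0.374).

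Markers of resting fibroblasts had a median nearer to 0. Of 17 tested, 0 were called, 1 was lower at an unadjusted p under 0.05, and the median of -0.30 became -0.08 without replicate 2. Still, 16 of the 17 were below 0 and 3 were lower without overlap, against 5.13% of all tested genes. Without replicate 2, 11 were below 0 and 3 were lower without overlap, against 10.7% of all tested genes. Mfap5, a microfibril gene, was at 31.5, 27.3 and 28.6 CPM against 25.2, 10.8 and 18.9 CPM (-0.67 ± 0.21, adjusted p = 0.582; without replicate 2, -0.37, adjusted p = 0.444). Pdgfra, the receptor gene used to mark cardiac fibroblasts, was at 56.1, 56.2 and 46.5 CPM against 44.6, 42.4 and 38.3 CPM (-0.34 ± 0.18, adjusted p = 0.61; without replicate 2, -0.32, adjusted p = 0.607). In Mfap5 and Pdgfra the groups did not overlap. The summed level of the 17 markers was 3600 to 3693 CPM in the Cre-negative libraries and 4045, 2719 and 3251 CPM in the Cre-positive ones. The part of fibroblast number in the matrix differences was not tested.

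Hippo pathway genes gave 0 calls among 28 tested, with a median of 0.05 (-0.09 without replicate 2). Wwtr1, which encodes TAZ, the paralog of YAP, was at 120, 114 and 112 CPM against 101, 147 and 113 CPM (0.06 ± 0.12, adjusted p = 0.904; without replicate 2, -0.09, adjusted p = 0.753); it is named after its values were seen. Stk4, a Hippo kinase gene, was at 27.6, 26.3 and 25.7 CPM against 31.4, 30.8 and 32.7 CPM, a small difference without overlap (0.25 ± 0.08, adjusted p = 0.582; without replicate 2, 0.30, adjusted p = 0.435).

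YAP-TEAD target genes gave 0 calls among 26 tested, with a median of -0.07 (-0.12 without replicate 2). At an unadjusted p under 0.05, 2 were higher and 5 lower. With no overlap, 3 were lower and 0 higher, against 5.13% and 5.51% of all tested genes. When replicate 2 was left out, 0 were higher and 7 lower at an unadjusted p under 0.05. Then 8 were lower and 1 higher without overlap, against 10.7% and 12.3% of all tested genes. Cyr61, a matricellular CCN gene, was at 53.7, 83.2 and 71.3 CPM against 48.4, 57.2 and 49.6 CPM (-0.42 ± 0.16, adjusted p = 0.582; without replicate 2, -0.48, adjusted p = 0.444). Ccdc80, a matrix protein gene, was at 109, 118 and 115 CPM against 89.1, 71.2 and 80.9 CPM (-0.51 ± 0.13, adjusted p = 0.564; without replicate 2, -0.40, adjusted p = 0.439), and Gadd45a, a growth arrest gene, at 24.4, 23.9 and 25.4 CPM against 15.6, 8.43 and 21.2 CPM (-0.71 ± 0.24, adjusted p = 0.582; without replicate 2, -0.40, adjusted p = 0.473). Neither overlapped. Ankrd1 and Ctgf, named after their values were seen, were set by replicate 2. Ankrd1, a stress-responsive cardiomyocyte gene, was at 1248, 1172 and 1373 CPM against 375, 4018 and 983 CPM, and its log2 difference went from 0.50 to -0.88 without that library (adjusted p = 0.806 and 0.435). Ctgf was at 175, 187 and 126 CPM against 226, 448 and 152 CPM (0.76 ± 0.31, adjusted p = 0.587; without replicate 2, 0.25).

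Macrophage and interferon-stimulated lists had medians below 0 that were nearer to 0 without replicate 2. Of 31 macrophage and monocyte markers 1 was called lower (Spp1), 29 were below 0 and the median was -0.43, against -0.17 without that library. The markers summed to 591, 700 and 675 CPM in the Cre-negative and to 691, 234 and 532 CPM in the Cre-positive libraries. Ccr2, the chemokine receptor gene of recruited monocytes, was low in all 3 Cre-positive libraries, at 1.61, 0.366 and 1.24 CPM against 4.33, 3.59 and 5.52 CPM (-2.04 ± 0.38, adjusted p = 0.17; without replicate 2, -1.60, adjusted p = 0.244). The part of macrophage number in the low Spp1 was not tested. All 34 interferon-stimulated genes were at or below 0, with a median of -0.46 and 0 calls, but 1 alone had no overlap and the median was -0.12 without replicate 2. That 1 was Iigp1, an interferon-inducible GTPase gene, at 53.2, 79.8 and 55.2 CPM against 27.7, 27.6 and 37.6 CPM (-1.02 ± 0.20, adjusted p = 0.198; without replicate 2, -0.92, adjusted p = 0.313). Of 11 T, NK and B cell markers 0 were called, and the median went from -0.37 to 0.13 without replicate 2. Of 11 neutrophil markers 0 were called, with a median above 0 (0.45, and 0.68 without replicate 2), which was -0.22 with Y-linked reads as a term. They summed to 20 to 30.8 CPM in the Cre-negative and 26.3 to 33.6 CPM in the Cre-positive libraries.

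Cell cycle genes had a median below 0 with and without replicate 2. Of 40 tested, 0 were called, 9 did not overlap on the lower side, 13 were lower and 2 higher at an unadjusted p under 0.05, and the median was -0.50, and -0.60 without replicate 2. The median was -0.22 in the fit of sham libraries alone and -0.13 on log2(FPKM + 1), and the summed level was 186 to 191 CPM in the Cre-negative and 171 to 178 CPM in the Cre-positive libraries. In 3 members all libraries of a group were at 0. Cenpf, a kinetochore protein gene, was at 27.1, 24.8 and 17.4 CPM against 13.5, 11.2 and 14.2 CPM (-0.83 ± 0.21, adjusted p = 0.564; without replicate 2, -0.71, adjusted p = 0.435). Mki67, the proliferation marker gene, was at 0.94, 1.9 and 3.25 CPM against 0.804, 0.275 and 0.722 CPM (-1.72 ± 0.46, adjusted p = 0.582; without replicate 2, -1.36, adjusted p = 0.446). Nerve and Schwann cell markers also had a median below 0 (-0.54, and -0.64 without replicate 2), with 0 of 11 called. With no overlap, 3 were lower and 0 higher, against 5.13% and 5.51% of all tested genes.

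Cardiomyocyte genes had a median near 0. Of 30 tested 0 were called, and the median was -0.03 (0.14 without replicate 2). Without replicate 2, 9 of the 30 were higher and 1 lower with no overlap, against 12.3% and 10.7% of all tested genes. Nkx2-5, a cardiac transcription factor gene, had the smallest p of the list, at 119, 114 and 113 CPM in the Cre-negative and 175, 164 and 149 CPM in the Cre-positive libraries (0.49 ± 0.10, adjusted p = 0.206; without replicate 2, 0.52, adjusted p = 0.244). Oxidative phosphorylation genes gave 0 calls among 56, with medians of -0.01 and 0.11 with and without replicate 2. With all libraries 0 of the 56 were free of overlap. Without replicate 2, 17 were higher and 0 lower with no overlap, against the same shares of all tested genes. Ribosomal protein genes had a median slightly above 0 (0.16, and 0.12 without replicate 2), with 0 of 41 called. At an unadjusted p under 0.05, 7 were higher and 0 lower. With no overlap, 11 were higher and 0 lower, against 5.51% and 5.13% of all tested genes. TGF-beta, activin and BMP signalling genes had medians of 0.00 and -0.02 with and without replicate 2, with 0 of 28 called. Endothelial markers had medians of 0.01 and -0.02, and smooth muscle and pericyte markers of -0.12 and -0.05.

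The medians of several lists of stress and fuel genes turned sign when replicate 2 was left out, and others did not, such as unfolded protein response genes (0.20 and 0.04) and heat shock genes (0.05 and 0.13). The fasting and PPAR-responsive list had a median of 0.49 with it and -0.14 without it, and 0 of 25 were called in either fit. Acot1, an acyl-CoA thioesterase gene of that list, was at 23.1, 17.9 and 8.77 CPM against 12.5, 282 and 10.9 CPM (log2 difference 2.62, and -0.47 without replicate 2). The sign of the median turned likewise for glucocorticoid-responsive genes (0.22 and -0.17), immediate early genes (0.16 and -0.28) and atrial markers (0.20 and -0.38). Myh7 gave a log2 difference of 2.67 ± 1.07 with replicate 2 and -0.20 ± 0.63 without it (adjusted p = 0.587 and 0.928). The raised Myh7 was known when replicate 2 was set apart, so this change was fixed in advance and tests nothing. In the cardiac stress list Nppb, the B-type natriuretic peptide gene, was higher in all 3 Cre-positive libraries, at 141, 325 and 132 CPM against 101, 114 and 105 CPM, but was not called (0.90 ± 0.29, adjusted p = 0.582; without replicate 2, 0.38, adjusted p = 0.515).

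**Figure D5:**
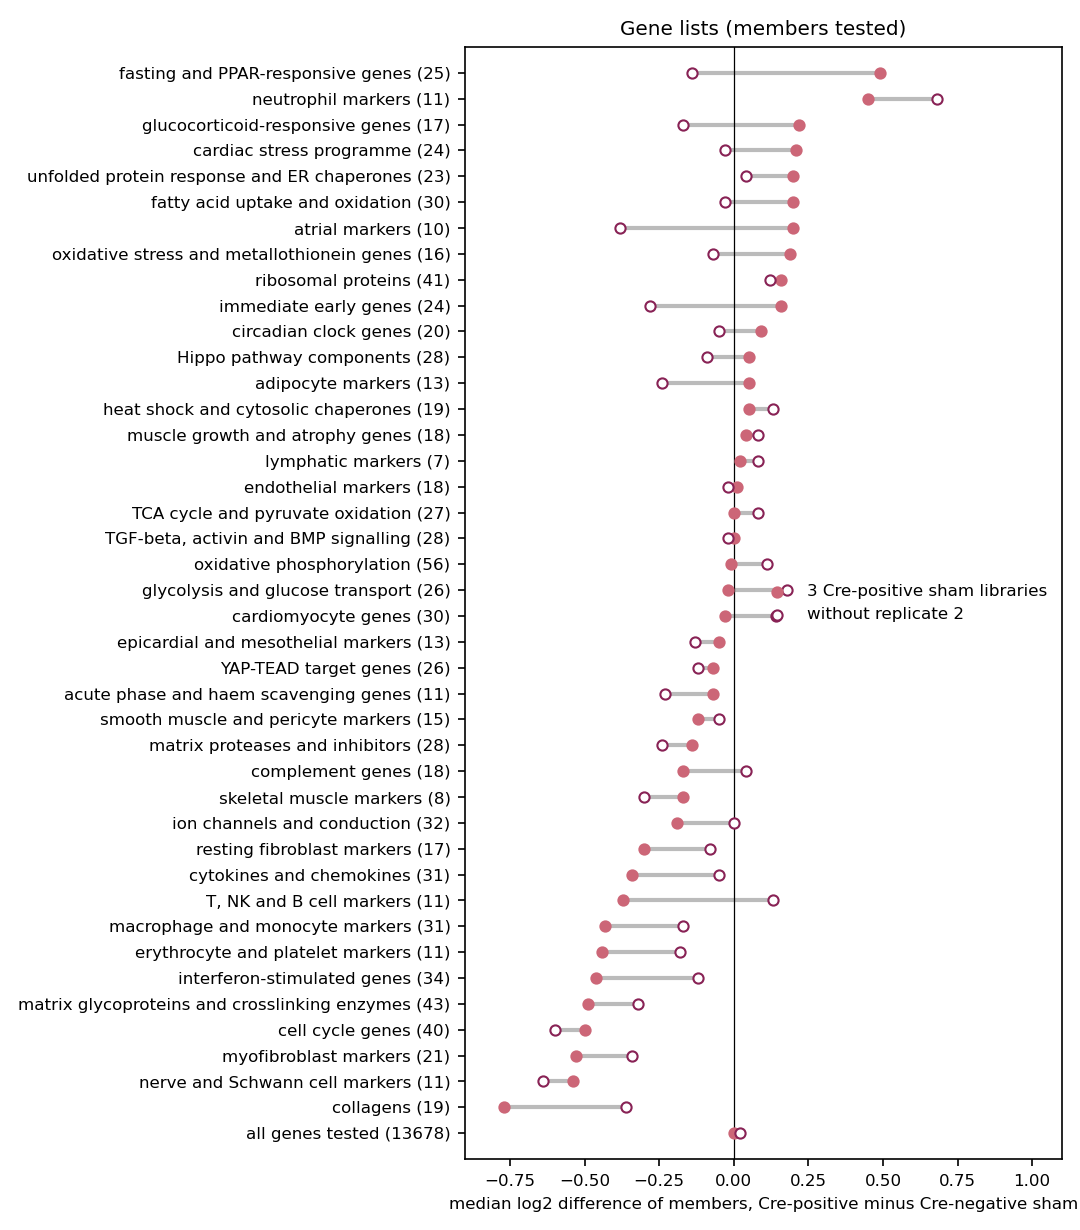
Median log2 difference, Cre-positive minus Cre-negative sham, over the tested members (number in brackets) of 41 gene lists and all genes tested; filled points use the 3 Cre-positive libraries, open points leave out replicate 2 and grey lines join them. Collagens lie lowest with all 6 libraries (-0.77), nerve and Schwann cell markers lowest without replicate 2 (-0.64; Y-linked genes are not plotted), and the fasting and PPAR-responsive list moves from 0.49 to -0.14.

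The authors' deposited table of the same comparison held 16514 genes, of which 12 had an adjusted p under 0.05, all lower in Cre-positive hearts. These 12 included the 7 genes called here, and the other 5 were Zfp781, Iigp1, Timp1, Col5a2 and Gm14288. In the authors' deposited table the log2 fold change was -3.36 for Postn, -3.24 for Tnc and -4.62 for Cthrc1. Zfp781, a zinc finger gene at -8.06 in the authors' deposited table (adjusted p = 9.18e-06), was at 9.03, 2.69 and 1.87 CPM in the Cre-negative and at 0 in all 3 Cre-positive sham libraries. It was also at 0 in Cre-negative MI replicates 1 and 3 and Cre-positive MI replicate 1, and was not called here (adjusted p = 0.582; without replicate 2, 0.491).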

How the data were processed

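RNA was taken from left ventricles 4 days after surgery. Per the submitters' processing notes, Bowtie2 2.2.5, RSEM 1.2.12 and mm10 were used; their settings and the annotation are not given in the sources used here. The authors deposited, for each library, estimated counts (RSEM expected counts) and FPKM values per gene; 74% of the positive expected counts were whole within 0.005. The authors deposited a comparison table with log2 fold changes and adjusted p-values, quoted only where named. Genes absent from a file were set to 0, which gave 17471 genes. Expected counts were rounded and tested with edgeR 4.0.16 (R 4.3.3): TMM scaling, a filter on low counts by group (minimum count 10, 3793 genes removed), and the quasi-likelihood test on 12 libraries with 1 coefficient per group (8 residual degrees of freedom). Benjamini-Hochberg adjustment ran over all genes tested, with calls at an adjusted p under 0.05. CPM values use TMM-scaled totals. The SE of a log2 difference is its absolute value divided by the square root of the F statistic of the quasi-likelihood test. No covariate entered. Depth was 10257675 to 15176286 counts per library over the 12 libraries. Counting intervals and floors (3 counts) cover counting error only, since the reads carry no stated molecular identifiers. In data simulated for this comparison (13599 genes, 50 changed at each fold), the test recovered 32% of genes changed 1.5-fold and 76% at 2-fold. It recovered 100% at 4-fold and 8-fold, and 3.14% of 159 calls were unchanged genes. The changed genes had a log2 of the mean sham CPM of at least 1, and the libraries of a group were drawn from 1 mean per gene. No simulated library was made to stand apart as Cre-positive sham replicate 2 did. These shares hold for the simulated data only. In the measured sham libraries Postn, Tnc, Cthrc1, Spp1 and Sprr1a were over 4-fold lower and called. Ccr2 (4.1-fold lower, edgeR adjusted p = 0.17) and Timp1 (4.43-fold lower, edgeR adjusted p = 0.265) were not called.

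The comparison, its gene lists and the markers were chosen with earlier results of these data known. Named genes were called genes without overlap whose mean log2 CPM reached 1 (Postn, Tnc, Aspn and Bche met this), Yap1, up to 4 members of each list with the smallest p, and the 8 highest and 8 lowest genes of Cre-positive sham replicate 2; Cthrc1 and Spp1 are named as list members, and Sprr1a, outside this rule, because it was called. Most other genes are marked as named after their values were seen, as are the DESeq2 calls in the closing section. Without such a mark, Myl2 and Bmp10 are named to describe the tissue and Myh6 to stand beside Myh7. Pom121 is named because an alternative fit called it, and Zfp781 and Gm14288 because the authors' deposited table did. Alternatives were RLE size factors, DESeq2 1.42.0, no filter, sham libraries alone, each sham library left out, a replicate block, Y-linked reads as a term, limma 3.58.1 (voom with sample weights, and log2(FPKM + 1) or log2(FPKM + 0.1) of genes with an FPKM of at least 1 in 3 libraries). Y-linked reads with replicate 2 left out, non-overlap without replicate 2 and plain library totals were added after seeing the data. Gene positions and promoter windows are RefSeq GRCm38.p6, the build of mm10; 17436 of 17471 genes matched by identifier.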

Additional observations from a re-analysis of the deposited data

How the results depend on the processing

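The 7 calls, all lower, were all kept under RLE size factors, without a filter on low counts and with limma on log2(FPKM + 1), which gave 7 calls each, and on log2(FPKM + 0.1), which gave 8. DESeq2 called 37 (11 higher, 26 lower) and gave a called member in 10 gene lists. The 6 sham libraries alone gave 0 calls and 0 lists with a called member, with Postn at -3.37 (adjusted p = 0.201); fewer samples enter that fit. limma voom with sample weights called 3 (Postn, Bche and Col5a2), all lower. Leaving out 1 sham library at a time gave 3 to 8 calls (3 to 8 lower, 0 to 2 higher); without Cre-negative replicate 1 Postn, Tnc and Cthrc1 were left, Aspn and Bche being at an adjusted p of 0.0571, and Bche was also not called without Cre-negative replicate 3 (adjusted p = 0.0617). The 2 higher calls, Pom121 and Jund, came without Cre-positive replicate 3. Y-linked reads as a term together with leaving out Cre-positive replicate 2 gave 4 calls, all lower, with Yap1 at 0.04; with 1 sham library left out Yap1 ranged from -0.15 to 0.02, the latter without Cre-positive replicate 2, in place of -0.06. The difference between sham and MI had 2 calls without a filter and 0 to 1 when 1 sham library was left out. With the replicate number as a block, 3 genes were called, all lower (Postn, Tnc and Cthrc1). Deviations of same-numbered sham libraries from their group means had correlations of -0.0654, -0.113 and 0.177. Not every library correlated best with its own number. With 3 libraries per group these values cannot show whether the numbers mark pairs, and the main fit did not pair them. Of 671 list medians, 612 moved by less than the spread between replicates and 59 by more. The 612 are not all stable, as they include medians that turned sign without Cre-positive replicate 2. Among them were the fasting and PPAR-responsive list (0.49 and -0.14) and immediate early genes (0.16 and -0.28). Collagens (-0.77 and -0.36), which kept their sign, were also counted there. The cause of the changes other than those named was not tested.

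With 3 libraries a group an exact permutation test cannot go below p = 0.1. Cthrc1, Spp1 and Sprr1a rest on 6 to 181 counts per group, so their folds are less precise than those of Postn or Bche. Genes changed 1.5-fold were mostly missed in the simulated data, and some differences of over 4-fold were not called in the measured libraries. A gene that was not called is not shown to be equal.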

Other observations

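DESeq2 called 30 genes beyond the 7, of which 19 were lower and 11 higher in Cre-positive sham hearts; they are named after their values were seen, and none was called by the edgeR quasi-likelihood test. Of the 19 lower genes 3 are given here. Wisp2, a CCN family gene, was at 7.52, 7.39 and 10.3 CPM in the Cre-negative and 2.97, 4.49 and 4.02 CPM in the Cre-positive libraries (DESeq2 adjusted p = 0.000237, edgeR adjusted p = 0.104, and 0.09 without Cre-positive replicate 2). Sfrp2, a secreted Wnt modulator gene of fibroblasts, was at 7.71, 4.39 and 6.8 CPM against 3.22, 0.733 and 1.86 CPM (DESeq2 adjusted p = 0.000132, edgeR adjusted p = 0.247, and 0.244 without Cre-positive replicate 2). Clec7a, the myeloid receptor gene for beta-glucan, was at 4.89, 4.49 and 3.65 CPM against 1.77, 0.733 and 2.27 CPM (DESeq2 adjusted p = 0.000974, edgeR adjusted p = 0.218, and 0.244 without Cre-positive replicate 2). Ddx3y, which is Y-linked, was also among them (DESeq2 adjusted p = 0.0171).

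Of the 11 higher genes 3 are given here, besides Nkx2-5 above. Srf, the serum response factor gene, was at 141, 136 and 149 CPM in the Cre-negative and 201, 218 and 165 CPM in the Cre-positive libraries (DESeq2 adjusted p = 0.027, edgeR adjusted p = 0.473, and 0.386 without Cre-positive replicate 2). Ednra, the endothelin A receptor gene, was at 62.9, 49.2 and 53.3 CPM against 87.5, 113 and 73.1 CPM (DESeq2 adjusted p = 0.0109, edgeR adjusted p = 0.31, and 0.34 without Cre-positive replicate 2). Noct, a deadenylase-like gene with circadian expression, was at 63.6, 48.9 and 53.9 CPM against 86.7, 104 and 71.5 CPM (DESeq2 adjusted p = 0.00841, edgeR adjusted p = 0.278, and 0.34 without Cre-positive replicate 2). In these 3 genes and in Nkx2-5 the groups did not overlap, with or without Cre-positive replicate 2.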
